A study of Mus musculus with 12 samples.

Results

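Chemokine receptors were followed in mouse splenic dendritic cells, the antigen-presenting cells that carry antigen to T cells. The 9 receptor genes described here, Ccr7, Ccr2, Ccr1, Ccr6, Ccr9, Xcr1, Cxcr4, Cxcr5 and Cx3cr1, were taken as a named list from 8251 genes on the array. Each had 1 probe set, and the array held 12422 probe sets in all besides its controls. RNA from spleen cells sorted for high CD11c, the integrin that marks dendritic cells, was hybridised to 12 arrays. The 6 groups of 2 arrays each were cultured CD8+, fresh CD8+, cultured DN, fresh DN, cultured CD4+ and fresh CD4+ cells, where DN (double negative) cells carry neither CD8 nor CD4. Fresh cells were processed straight after isolation, and cultured cells had spent 2 h at 37 °C, with no added stimulus named in the labels. The labels give no mouse strain, age or sex, name no treatment or genetic change in any group, and do not say whether replicates came from separate animals, so p-values measure only the spread between these arrays. Values are Average Difference intensities, the array's measure of probe set brightness, which can fall below 0. An intensity of 91.37 was taken as the detection floor.

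Chemokine receptors are seven-pass membrane proteins coupled to inhibitory G proteins. They steer cells along gradients of chemokines, and their ligands are small secreted proteins laid down by stroma, endothelium and leukocytes. In dendritic cells, CCR7 guides maturing cells toward the T cell zones of lymphoid tissue, where its ligands CCL19 and CCL21 are made. XCR1, the receptor for XCL1, marks the cross-presenting lineage to which CD8+ splenic dendritic cells belong.

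Transcripts of the sorting antigens followed the sample titles, with 1 cultured CD4+ array only just above the arrays of the other subsets in Cd4. Cd8a, the CD8 alpha chain, read 890.9 and 679.4 on the cultured CD8+ arrays, 1210.4 and 1675.2 on the fresh CD8+ arrays and -17.9 to 36.1 on the other 8. Cd4 read 270.9 and 112.2 on the cultured CD4+ arrays, 617.3 and 612.8 on the fresh CD4+ arrays and -27.6 to 105.6 on the others. One label of fresh CD8+ replicate 1 names CD4 in place of CD8, and its Cd8a and Cd4 intensities were 1210.4 and 92.0. All 6 dendritic cell markers (Itgax, Flt3, Zbtb46, Ciita, H2-Ab1 and Cd74) lay above the floor in every group. Of the T cell markers, 7 of the 8 on the array lay below the floor on all 12 arrays, Cd3e among them. Some arrays stood apart in the 3'/5' ratio of Gapdh control probe sets, which can rise with RNA breakdown. It was 2.55 on fresh CD8+ replicate 1, 1.97 on cultured CD4+ replicate 1 and 1.34 on cultured DN replicate 1. The remaining 9 arrays lay between 0.89 and 1.04. Actin control probe sets did not single out these 3 arrays. For actin, fresh CD8+ replicate 1 had 0.91, cultured DN replicate 1 had 0.92 and cultured CD4+ replicate 1 had 1.16. The highest actin value, 1.28, was that of cultured CD4+ replicate 2, and cultured DN replicate 2 had 1.15. Whether RNA breakdown raised the Gapdh ratio was not tested. Noise below 0 was highest on cultured CD4+ replicate 1, at 107.9, against 26.2 to 82.5 elsewhere.

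The upstream sequences of Xcr1 and Ccr6 are shown because these 2 receptors separated the subsets in opposite directions. They are the 250 bases before the annotated start in RefSeq on GRCm38.p6, given in the direction of transcription; Xcr1 lies on the minus strand and Ccr6, with a pair of annotated starts, on the plus strand. Of the 9 receptors, 7 had such an entry, with 8 windows in all. Ccr7 and Cxcr5 had none, so no motif was searched upstream of them. Capitals mark a match to the kB consensus, the site read by NF-kB, searched on both strands.
Xcr1, chr9:123862030-123862279: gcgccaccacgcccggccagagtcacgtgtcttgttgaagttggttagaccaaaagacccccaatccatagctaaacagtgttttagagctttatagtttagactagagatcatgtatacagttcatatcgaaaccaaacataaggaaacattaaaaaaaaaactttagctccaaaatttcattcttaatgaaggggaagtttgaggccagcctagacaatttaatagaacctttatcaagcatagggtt
Ccr6, first start, chr17:8235793-8236042: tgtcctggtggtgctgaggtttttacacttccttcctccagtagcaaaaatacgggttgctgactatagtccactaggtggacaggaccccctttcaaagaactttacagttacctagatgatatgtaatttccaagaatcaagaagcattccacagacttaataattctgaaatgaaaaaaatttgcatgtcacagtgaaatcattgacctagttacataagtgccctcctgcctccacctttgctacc
Ccr6, second start, chr17:8242276-8242525: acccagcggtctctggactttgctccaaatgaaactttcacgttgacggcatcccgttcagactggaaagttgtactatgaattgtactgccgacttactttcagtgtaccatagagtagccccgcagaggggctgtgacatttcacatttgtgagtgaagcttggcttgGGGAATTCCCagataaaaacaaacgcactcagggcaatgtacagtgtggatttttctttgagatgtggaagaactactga
The match GGGAATTCCC lay 80 to 71 bases before the second Ccr6 start (positions -80 to -71). It was the only kB match among the receptors' windows, and 5% of the 32851 mouse windows of this length held one. No receptor window held, on either strand, the AP-1 motif TGANTCA, which 6.75% of all windows did. Nor did any hold a GAAA followed by any 2 bases and GAAA, a spaced repeat read by interferon regulatory factors, which 2.98% of all windows held. A GGAA followed by any 2 bases and GAAA, a joint site of ETS factors and interferon regulatory factors, was also missing from them. That site was in 2.3% of all windows. A missing match says only that these letters are not in the window.

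**Figure D1:**
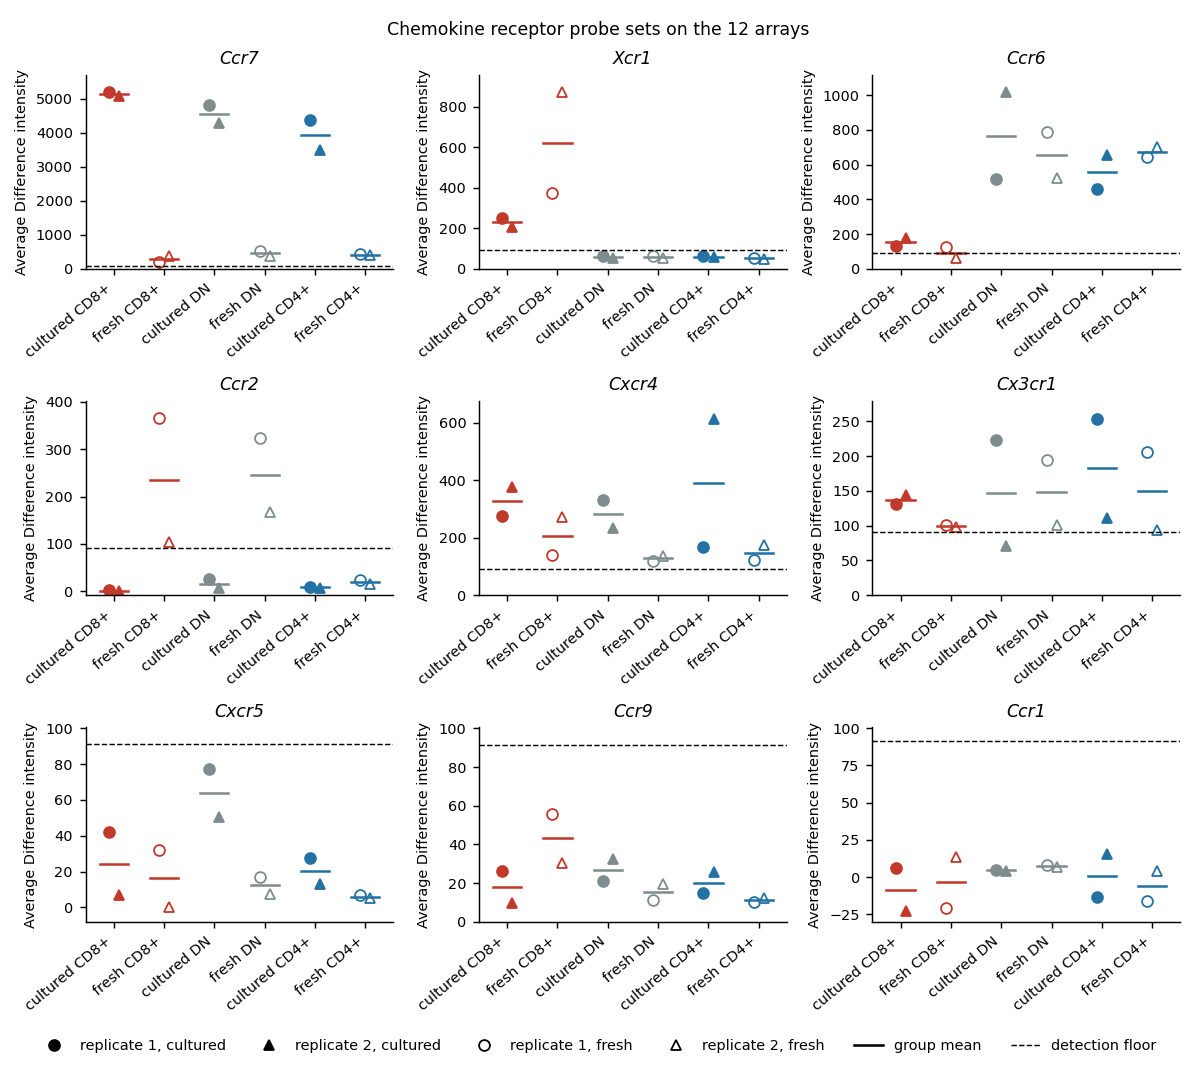
Intensity of each of the 9 receptors on all 12 arrays (vertical axis, Average Difference, linear, scaled to each receptor), by group along the horizontal axis; each point is 1 array, each short line the group mean, and the dashed line the detection floor of 91.37. Ccr7 is high on all 6 cultured arrays, Xcr1 only on the 4 CD8+ arrays and Ccr6 on the 8 DN and CD4+ arrays, while Ccr1, Ccr9 and Cxcr5 stay below the floor.

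Ccr7 rose sharply in every subset after 2 h of culture. Its intensities were 5190.9 and 5073.5 in cultured CD8+ cells, against 208.3 and 378.2 in fresh CD8+ cells. In cultured DN cells they were 4804.2 and 4282.5, against 528.8 and 381.7 in fresh DN cells. In cultured CD4+ cells they were 4373.0 and 3482.6, against 434.9 and 402.5 in fresh CD4+ cells. Every cultured array lay above every fresh array, and all 12 lay above the floor. Group means were 5132.2 ± 83.0 in cultured and 293.2 ± 120.1 in fresh CD8+ cells (SD, n = 2 each here and below), a ratio of 17.5. For DN cells they were 4543.4 ± 368.9 in culture and 455.2 ± 104.0 fresh, a ratio of 9.98. For CD4+ cells they were 3927.8 ± 629.6 in culture and 418.7 ± 22.9 fresh, a ratio of 9.38.

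On the generalised log2 scale, which stays defined for values below 0, limma gave Ccr7 a culture difference of 4.18 ± 0.31 in CD8+ cells (SE, adjusted p = 4.42e-05). In DN cells it was 3.33 ± 0.31 (adjusted p = 0.000207), in CD4+ cells 3.22 ± 0.31 (adjusted p = 0.000154), and averaged over the 3 subsets 3.58 ± 0.18 (adjusted p = 3.79e-07). Adjusted p-values follow Benjamini and Hochberg across all 6159 tested probe sets, and a probe set under 0.05 was called. Leaving out any 1 array kept all 4 calls, with the CD8+ difference between 3.76 without fresh CD8+ replicate 1 and 4.61 without fresh CD8+ replicate 2.

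The Ccr7 levels of the subsets were closer to each other than the states were. In the cultured state the order of the means was CD8+, DN, CD4+, and in the fresh state DN, CD4+, CD8+. Both fresh CD8+ arrays lay below all 4 other fresh arrays, yet the difference of -0.57 ± 0.31 from fresh CD4+ cells did not pass (adjusted p = 0.575), nor did that of -0.67 ± 0.31 from fresh DN cells (adjusted p = 0.529). Both cultured CD8+ arrays lay above the other 4 cultured arrays, by 0.39 ± 0.31 over CD4+ cells (adjusted p = 0.582) and 0.18 ± 0.31 over DN cells (adjusted p = 0.895). The culture difference of CD8+ cells exceeded that of CD4+ cells by 0.96 ± 0.43 (adjusted p = 0.586) and that of DN cells by 0.85 ± 0.43 (adjusted p = 0.998), and that of DN cells exceeded that of CD4+ cells by 0.12 ± 0.43 (adjusted p = 0.999). No probe set on the array passed these tests of a difference in culture effect (0% called), although 525 had an unadjusted p under 0.05 for CD8+ against CD4+ cells, 250 for CD8+ against DN cells and 127 for DN against CD4+ cells. Some probe sets passed the tests against CD4+ cells without cultured CD4+ replicate 2, which leaves that group only the array of highest noise. Without cultured CD4+ replicate 1 they did not. A few passed for CD8+ against DN cells without cultured DN replicate 2, which also leaves that group a single array. None of the 6 tested receptors was among the probe sets that passed.

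Xcr1, the receptor for XCL1 from activated T and NK cells, was above the floor on the 4 CD8+ arrays and on no other. It read 252.8 and 207.5 in cultured CD8+ cells, against 373.2 and 872.0 in fresh CD8+ cells. It read 62.9 and 53.4 in cultured and 64.8 and 51.6 in fresh DN cells. In CD4+ cells it read 64.6 and 56.4 after culture and 55.5 and 47.0 fresh. The lowest CD8+ array thus stood well clear of the highest of the other 8, and the 2 fresh CD8+ arrays differed from each other more than the cultured ones did.

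Fresh CD8+ cells had at least 6.24-fold more Xcr1 signal than fresh CD4+ cells (log2 difference 3.26 ± 0.43, adjusted p = 0.00287), and at least 6.24-fold more than fresh DN cells (3.12 ± 0.43, adjusted p = 0.00603). These folds are lower bounds, set against the floor because both arrays of the dim group lay under it. The difference from CD4+ cells stayed called with any 1 array left out, at 2.64 without fresh CD8+ replicate 2 and 3.87 without fresh CD8+ replicate 1. That from DN cells was lost without fresh DN replicate 1 (adjusted p = 0.0555) or replicate 2 (adjusted p = 0.0895).

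After culture the Xcr1 gap was smaller and just missed the threshold. Cultured CD8+ cells stood at least 2.51-fold above cultured CD4+ cells (log2 difference 1.77 ± 0.43, adjusted p = 0.0594), and at least 2.51-fold above cultured DN cells (1.81 ± 0.43, adjusted p = 0.0787). Over 22 alternative settings, single arrays left out among them, the difference from CD4+ cells ranged from 1.33 to 1.90 and was called in 4. The difference from DN cells ranged from 1.33 to 1.95 over 22 such settings and was called in 7. Within CD8+ cells, Xcr1 averaged 230.2 ± 32.0 in culture and 622.6 ± 352.7 fresh, a ratio of 2.71 between fresh and cultured (log2 difference -1.31 ± 0.43, adjusted p = 0.0913). That difference passed without fresh CD8+ replicate 1, the array of highest Gapdh ratio (-1.92, adjusted p = 0.0355), and was -0.70 without fresh CD8+ replicate 2. The culture effect of Xcr1 in CD8+ cells minus that in CD4+ cells was -1.49 ± 0.60 on the log2 scale, which did not pass (adjusted p = 0.586).

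Ccr6, the receptor for CCL20, which places cells near epithelia and in lymphoid follicles, showed the opposite subset pattern. Its intensities were 132.4 and 179.6 in cultured and 123.9 and 61.3 in fresh CD8+ cells. In DN cells they were 514.6 and 1016.6 after culture and 790.0 and 520.0 fresh. In CD4+ cells they were 461.3 and 654.1 after culture and 644.6 and 702.4 fresh. All 4 CD8+ arrays lay below all 8 others, whichever the state, while DN and CD4+ arrays overlapped.

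Ccr6 averaged 92.6 ± 44.3 in fresh CD8+ cells and 673.5 ± 40.9 in fresh CD4+ cells (log2 difference -2.84 ± 0.42, adjusted p = 0.00478). The CD4+ mean was 7.27 times the measured CD8+ mean, of which 1 of the 2 arrays (61.3) lay under the floor. Against 655.0 ± 190.9 in fresh DN cells the log2 difference was -2.77 ± 0.42 (adjusted p = 0.00792), with the DN mean 7.07 times that same CD8+ mean. Omitting fresh CD4+ replicate 1 (adjusted p = 0.0555) or replicate 2 (0.0623) ended the first call, and omitting fresh DN replicate 1 (0.111) or replicate 2 (0.0795) ended the second. In the cultured state Ccr6 averaged 156.0 ± 33.4 in CD8+ cells and 765.6 ± 355.0 in DN cells (log2 difference -2.20 ± 0.42, adjusted p = 0.0291). This call was lost without either cultured CD8+ array (adjusted p = 0.235 without replicate 1 and 0.129 without replicate 2), without cultured DN replicate 2 (0.207), and narrowly without either fresh CD4+ array (0.0542 without replicate 1 and 0.055 without replicate 2). Against 557.7 ± 136.3 in cultured CD4+ cells the difference of -1.80 ± 0.42 lay at the threshold (adjusted p = 0.0502). Over 23 alternative settings, single arrays left out among them, this difference ranged from -2.05 to -1.55 and was called in 9.

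Culture did not move Ccr6 past the threshold in any subset. The log2 difference was 0.75 ± 0.42 in CD8+ cells (adjusted p = 0.321), 0.17 ± 0.42 in DN cells (adjusted p = 0.817) and -0.29 ± 0.42 in CD4+ cells (adjusted p = 0.63). Between DN and CD4+ cells the Ccr6 difference did not pass when fresh (-0.07 ± 0.42, adjusted p = 1) or after culture (0.40 ± 0.42, adjusted p = 0.998). B cells also carry CCR6, and the summed intensity of 9 B cell markers was 809 to 1079 in cultured CD8+, 717 to 1527 in fresh CD8+, 972 to 1369 in cultured DN, 1311 to 1450 in fresh DN, 890 to 1806 in cultured CD4+ and 1399 to 1460 in fresh CD4+ cells. Both arrays lay above the floor for 3 of these markers in fresh CD8+ cells, against 5 in fresh DN and 5 in fresh CD4+ cells, and for 3 in each cultured group, while Cr2 and Ebf1 were below it on all 12 arrays. One of the 7 tested, Cd22, was lower in fresh CD8+ cells (6.0 ± 12.4) than in fresh DN (664.2 ± 280.9, adjusted p = 0.0116) and fresh CD4+ cells (538.3 ± 36.8, adjusted p = 0.0119), as Ccr6 was. Cd22 is also part of the sums above. The median log2 difference of all 7 tested markers was 0.05 for fresh CD8+ minus fresh CD4+ cells. It was 0.29 for fresh CD8+ minus fresh DN cells. The part of such cells in the Ccr6 result was not tested, and in bulk samples a change in the number of cells that carry a transcript cannot be told apart from a change in its amount per cell.

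**Figure D2:**
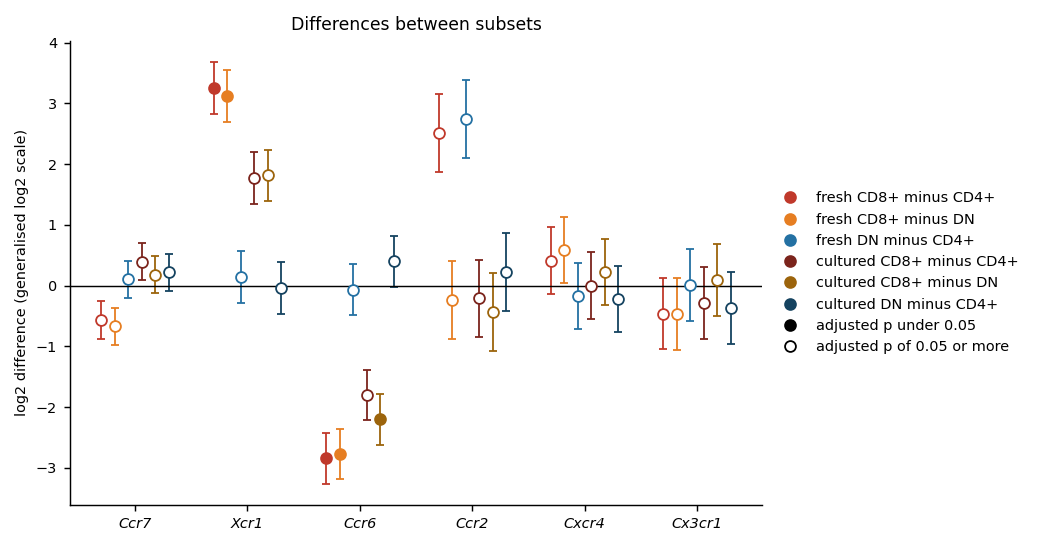
Log2 differences between subsets (vertical axis, generalised log2 scale, with standard errors) for the 6 receptors that were tested, among fresh and among cultured cells; filled points have an adjusted p under 0.05. Xcr1 lies above 0 and Ccr6 below 0 wherever CD8+ cells are compared with another subset, and DN minus CD4+ holds no filled point.

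Ccr2, the receptor for CCL2 and related chemokines that draws monocytes and their progeny out of bone marrow, was seen in fresh CD8+ and fresh DN cells only. It read 3.4 and -0.1 in cultured CD8+ cells, against 365.0 and 103.7 in fresh CD8+ cells. It read 26.1 and 6.4 in cultured DN cells, against 322.5 and 166.5 in fresh DN cells. In CD4+ cells it read 9.4 and 7.5 after culture and 24.3 and 16.3 fresh. Thus 4 of the 12 arrays lay above the floor, all 4 of them fresh, and replicate 1 was the higher array in 6 of 6 groups.

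Ccr2 fell after culture by at least 2.13-fold in CD8+ cells (log2 difference -3.07 ± 0.64, adjusted p = 0.015) and by at least 2.54-fold in DN cells (-2.87 ± 0.64, adjusted p = 0.0189). In CD4+ cells both states lay under the floor (-0.35 ± 0.64, adjusted p = 0.702). The mean over the 3 subsets was -2.10 ± 0.37 (adjusted p = 0.00134). Values near 0 weigh on these differences: with every intensity under the floor raised to it, the CD8+ difference became -1.09 (adjusted p = 0.226), the DN difference -1.34 (adjusted p = 0.113) and the mean -0.81 (adjusted p = 0.0478). The CD8+ call was also lost without fresh CD8+ replicate 1 (adjusted p = 0.121) or either cultured CD8+ array (0.0915 without replicate 1 and 0.0772 without replicate 2). The DN call was lost without fresh DN replicate 1 (0.159) or replicate 2 (0.0926) and without cultured DN replicate 1 (0.0706) or replicate 2 (0.0801).

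Among fresh cells, Ccr2 stood at least 2.13-fold higher in CD8+ than in CD4+ cells (2.51 ± 0.64, adjusted p = 0.0825), and at least 2.54-fold higher in DN than in CD4+ cells (2.74 ± 0.64, adjusted p = 1). Neither of these differences passed. The fresh CD4+ arrays lay below those of both other groups, which can occur by chance with 2 arrays a group. The second difference was called in 1 of 22 alternative settings, the fit of only the groups compared (adjusted p = 0.0126). Without fresh CD8+ replicate 2 the first was 3.38, with only the array of highest Gapdh ratio left in that group. Over 22 alternative settings, single arrays left out among them, the first ranged from 1.09 to 3.38 and was called in 3. The culture effect was lower in CD8+ than in CD4+ cells (difference of effects -2.72 ± 0.91, adjusted p = 0.542) and lower in DN than in CD4+ cells (-2.51 ± 0.91, adjusted p = 0.999), and neither passed. Monocytes and macrophages also carry CCR2. The summed intensity of 9 of their markers was 7570 to 12338 in cultured against 3417 to 4204 in fresh CD8+ cells, 3729 to 4307 in cultured against 2586 to 3502 in fresh DN cells, and 3983 to 6262 in cultured against 4630 to 5035 in fresh CD4+ cells. The median log2 difference of these 9 markers after culture was 0.47 in CD8+, -0.33 in DN and -0.41 in CD4+ cells. Of the 9, 3 were called higher and 0 lower in CD8+, 2 and 0 in DN, and 2 and 3 in CD4+ cells. Over all probe sets, 4.01% were called higher and 4.12% lower in CD8+ cells. These shares were 4.21% and 5.7% in DN cells, and 7.53% and 10.9% in CD4+ cells. The part of such cells in the Ccr2 result was not tested.

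Cxcr4, the receptor for CXCL12, which holds leukocytes near stromal niches, was above the floor on all 12 arrays. It read 276.9 and 377.4 in cultured and 138.5 and 273.5 in fresh CD8+ cells. It read 331.1 and 231.9 in cultured and 119.6 and 137.5 in fresh DN cells. In CD4+ cells it read 169.2 and 613.6 after culture and 122.3 and 173.2 fresh. Cultured arrays lay above fresh ones without overlap in CD8+ and DN cells, and overlapped with them in CD4+ cells, where the 2 cultured arrays differed widely.

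The mean culture effect on Cxcr4 was 0.97 ± 0.32 (adjusted p = 0.032). No single subset passed, with 0.72 ± 0.55 in CD8+ cells (adjusted p = 0.486), 1.08 ± 0.55 in DN cells (adjusted p = 0.24) and 1.12 ± 0.55 in CD4+ cells (adjusted p = 0.165). The call on the mean was lost without replicate 1 of fresh CD4+ (adjusted p = 0.077), fresh CD8+ (0.0721), fresh DN (0.0687), cultured CD8+ (0.0536) or cultured DN cells (0.084), without replicate 2 of fresh DN (0.0643) or cultured CD8+ cells (0.0789), and with no filter on dim probe sets (0.0534). The CD4+ difference rested on 1 array: it was 2.04 without cultured CD4+ replicate 1 (adjusted p = 0.0211) and 0.21 without cultured CD4+ replicate 2, the array at 613.6.

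Cx3cr1, the fractalkine receptor, lay above the floor on 11 of 12 arrays and passed in no comparison. It read 130.9 and 143.6 in cultured and 100.8 and 98.6 in fresh CD8+ cells. It read 223.2 and 71.1 in cultured and 194.7 and 101.1 in fresh DN cells. In CD4+ cells it read 253.7 and 111.0 after culture and 206.3 and 94.4 fresh. The spread lay between the replicates rather than between the groups: replicate 1 was the higher in 5 of 6 groups and in the DN and CD4+ groups by a wide margin. The mean culture effect was 0.18 ± 0.34 (adjusted p = 0.684).

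The remaining 3 receptors were below the floor on all 12 arrays and were not tested. Ccr1, an inflammatory receptor for CCL3 and CCL5 among others, ranged from -23.0 to 15.5 with a median of 4.7. Ccr9, the receptor for CCL25 that directs cells to the gut and thymus, had its highest mean in fresh CD8+ cells, with 55.8 and 30.5, and its lowest array at 9.6. Cxcr5, the receptor for CXCL13 that directs cells to B cell follicles, was highest in cultured DN cells at 77.2 and 50.4 and lowest at 0.0. A value under the floor does not show that a transcript was absent.

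Across the comparisons, the number of receptors called can be set beside the share of all probe sets called. Of the 6 tested, fresh CD8+ minus fresh CD4+ called 2 (Xcr1 higher, Ccr6 lower), where 1.98% of all probe sets were called, and fresh CD8+ minus fresh DN called the same 2, where 1.43% were. Fresh DN minus fresh CD4+ called 0, with 0% of all probe sets called and 81 of them at an unadjusted p under 0.05. Cultured CD8+ minus cultured CD4+ called 0, with 2.29% of all probe sets called, and cultured CD8+ minus cultured DN called 1, Ccr6, with 1.3%. Cultured DN minus cultured CD4+ called 0, with 0% of all called and 235 at an unadjusted p under 0.05. Some probe sets but no receptor passed there without cultured CD4+ replicate 2, which leaves that group only its noisiest array. Culture called 2 receptors in CD8+ cells (Ccr7 higher, Ccr2 lower; 8.13% of all probe sets), the same 2 in DN cells (9.9%) and 1, Ccr7, in CD4+ cells (18.4%). The mean culture effect called 3, Ccr7 and Cxcr4 higher and Ccr2 lower, where 39.3% of all probe sets were called. The comparisons share arrays, so their counts are not independent. A fit without the 3 arrays of high Gapdh ratio was chosen after seeing the data. It leaves 3 groups with 1 array each, fresh CD8+ among them, and their spread is taken from the other groups. Only its effect sizes and directions are given here. Xcr1 stayed higher and Ccr6 lower in CD8+ cells against either subset, fresh and cultured. The culture difference in CD8+ cells was -1.92 for Xcr1 and 1.20 for Ccr6, and in CD4+ cells 2.04 for Cxcr4. In the mean culture effect Ccr6 had 0.61 and Xcr1 -0.63. Ccr7 stayed higher after culture in every subset.

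**Figure D3:**
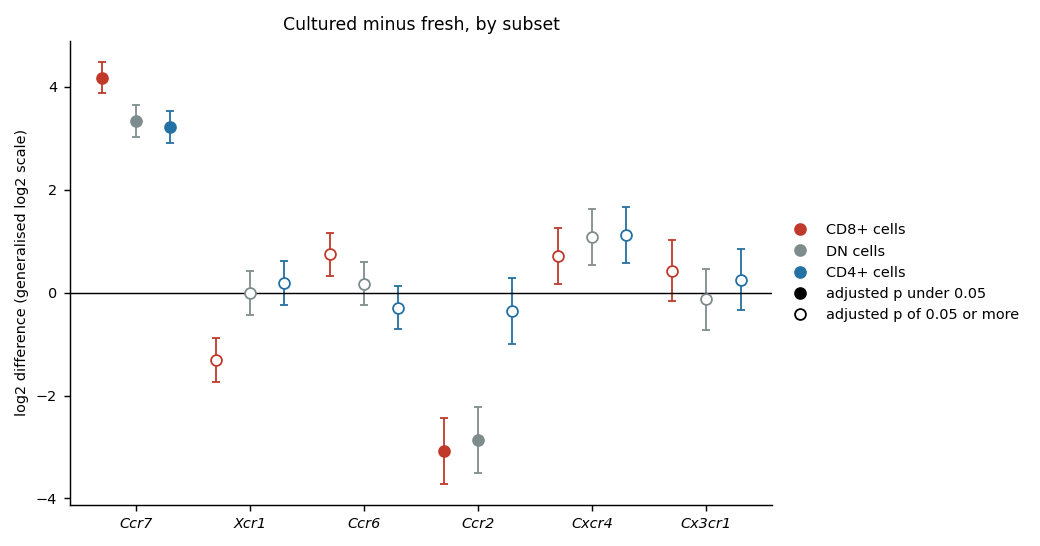
Log2 difference of cultured minus fresh cells (vertical axis, generalised log2 scale, with standard errors) for the 6 receptors that were tested, with a point for each subset; filled points have an adjusted p under 0.05. Ccr7 is between 3.22 and 4.18 in all 3 subsets, and Ccr2 is near -3 in CD8+ and DN cells.

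Genes related to these receptors were read from lists. Of 15 other chemokine receptors, 11 were on the array and 4 were tested. Cxcr3, the receptor for the interferon-induced CXCL9 and CXCL10, was higher in fresh CD8+ cells (251.2 ± 66.0) than in fresh CD4+ cells (55.2 ± 13.2), by at least 2.7-fold (log2 difference 1.98 ± 0.37, adjusted p = 0.0183). Ccrl2, which binds chemerin and does not signal like other chemokine receptors, was lower in fresh CD8+ cells (76.8 ± 2.1) than in fresh CD4+ cells (418.4 ± 64.1), by at least 4.55-fold (-2.33 ± 0.46, adjusted p = 0.0248). Ackr1, a scavenging receptor, read lower in cultured CD4+ cells (-5.6 ± 0.4) than in fresh CD4+ cells (117.4 ± 0.8), by at least 1.28-fold (-2.59 ± 0.59, adjusted p = 0.0136). Only the fresh CD4+ arrays lay above the floor for Ackr1. It thus entered the tests through the group where it was high, and its call is no support for a fall. Over 22 alternative settings the difference ranged from -3.73 to -0.36. The Cxcr3 call was lost without either fresh CD4+ array (adjusted p = 0.111 and 0.227) or either fresh CD8+ array (0.0506 and 0.0691). The Ccrl2 call was lost without either fresh CD4+ array (0.14 and 0.244), either fresh CD8+ array (0.129 and 0.0663) or fresh DN replicate 2 (0.0506), and the Ackr1 call without either fresh CD4+ array (0.113 and 0.13), each pair in the order of replicates 1 and 2.

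Of 18 ligands of the listed receptors, 13 were on the array and 7 were tested. In the mean culture effect 2 rose and 0 fell, with a median log2 difference of 0.53 against -0.02 over all probe sets, of which 17% rose and 22.3% fell. They were Ccl5, a ligand of CCR1 (1.61 ± 0.34, adjusted p = 0.00385), and Ccl9, a mouse ligand of CCR1 (1.65 ± 0.28, adjusted p = 0.00118). Ccl9 also passed within CD4+ cells, at 327.2 ± 201.3 in culture against 28.4 ± 2.3 fresh (adjusted p = 0.00358). Its receptor Ccr1 lay below the floor on the same arrays.

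Of 14 other chemoattractant receptors, 10 were on the array and 5 were tested, and 3 rose and 0 fell in the mean culture effect, with a median of 0.97 against -0.02 over all probe sets, of which 17% rose. Ptger4, which encodes the prostaglandin E2 receptor EP4, rose in all 3 subsets together with Ccr7. It averaged 1558.1 ± 411.7 in cultured against 287.4 ± 83.8 in fresh CD8+ cells (2.44 ± 0.34, adjusted p = 0.00189). It averaged 1236.2 ± 248.9 in cultured against 259.5 ± 56.0 in fresh DN cells (adjusted p = 0.00288), and 1971.8 ± 599.1 in cultured against 141.5 ± 2.5 in fresh CD4+ cells (adjusted p = 0.000143). Ptafr, the receptor for platelet-activating factor, passed in all 3 subsets with log2 differences of 2.33 in CD8+, 1.58 in DN and 1.88 in CD4+ cells. Its CD8+ call was lost without cultured CD8+ replicate 1 (adjusted p = 0.0638), its CD4+ call without fresh CD4+ replicate 1 (0.0688) or replicate 2 (0.0732), and its DN call without any of 8 arrays (up to 0.23). S1pr3, a sphingosine-1-phosphate receptor, passed in the mean (0.97 ± 0.28, adjusted p = 0.0187), and not without fresh CD4+ replicate 2 (0.0574), fresh DN replicate 2 (0.0614) or cultured CD8+ replicate 1 (0.0544).

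Downstream of the receptors, 37 signalling genes (G protein subunits, receptor kinases, RGS proteins and cytoskeletal effectors) were listed, 26 were on the array and 25 were tested. In the mean culture effect 3 rose and 12 fell, with a median of -0.41 against -0.02 over all probe sets, where 17% of all probe sets rose and 22.3% fell. Rgs2, a regulator that speeds the shut-off of G protein signals, averaged 290.6 ± 73.2 in cultured against 1604.8 ± 479.6 in fresh CD8+ cells (-2.45 ± 0.32, adjusted p = 0.00147). It was also lower in cultured CD8+ than in cultured CD4+ cells (994.3 ± 288.8; -1.76 ± 0.32, adjusted p = 0.0191), a call lost without cultured CD8+ replicate 1 (0.0722) or replicate 2 (0.177). Was, the Wiskott-Aldrich syndrome protein that drives actin branching, fell in all 3 subsets, to 179.1 ± 30.7 in cultured against 642.0 ± 106.9 in fresh CD8+ cells (-1.82 ± 0.30, adjusted p = 0.00478). Its CD8+ call was lost without cultured CD8+ replicate 1 (adjusted p = 0.0629) and its DN call without fresh DN replicate 2 (0.0596). Rgs19 passed in the mean (-1.09 ± 0.16, adjusted p = 0.000396). Grk6, a kinase that desensitises chemokine receptors, averaged -70.0 ± 69.7 in cultured against 377.0 ± 40.8 in fresh CD8+ cells, at least 4.11-fold lower (adjusted p = 0.00237), and was at least 5.16-fold lower in cultured than fresh DN cells (not called without fresh DN replicate 2, adjusted p = 0.0532) and at least 4.38-fold lower in cultured than fresh CD4+ cells.

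Maturation genes rose alongside Ccr7. Of 12 listed, 11 were on the array and 10 were tested, and the mean culture effect called 9 as higher and 0 as lower, with a median of 2.19 against -0.02 over all probe sets, of which 17% rose. By subset, 5 rose in CD8+ cells (4.01% of all probe sets), 6 in DN cells (4.21%) and 5 in CD4+ cells (7.53%). Cd83, a surface marker of mature dendritic cells, averaged 7181.4 ± 392.8 in cultured against 2292.3 ± 514.9 in fresh CD8+ cells (adjusted p = 0.00295). Traf1, an adaptor of TNF receptors, averaged 3600.4 ± 947.3 in cultured against 545.2 ± 66.5 in fresh CD8+ cells (adjusted p = 0.000249). Ccl22, a chemokine that attracts CCR4-bearing T cells, had a mean effect of 2.88 ± 0.29 (adjusted p = 3.96e-05). Cd86, a costimulatory ligand, had one of 2.81 ± 0.23 (adjusted p = 8.63e-06). By subset, Cd86 was called after culture in CD4+ cells (4.065 ± 0.39, adjusted p = 0.000154) and DN cells (3.04 ± 0.39, adjusted p = 0.00114), and not in CD8+ cells. Fresh CD8+ cells (408.6 ± 65.4) already stood above fresh CD4+ cells (101.1 ± 6.6) in Cd86 (log2 difference 1.94 ± 0.39, adjusted p = 0.0299). That call was lost with no filter on dim probe sets (adjusted p = 0.0593). No probe set was called for a difference in culture effect between subsets. These lists overlap in time and arrays with the Ccr7 result and are no separate evidence for it.

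The genes whose pattern over the 12 arrays was most like that of Ccr7 were Ehd1 (Pearson r = 0.989), Dnajb2 (0.982), Map2k3 (0.981), Txnrd1 (0.98) and Ramp3 (0.979). All 5 were low on the 6 fresh and high on the 6 cultured arrays. Txnrd1, a thioredoxin reductase, spanned 3548.0 to 4124.7 on cultured CD8+ arrays, against 275.2 to 312.6 on fresh CD8+ arrays. Ehd1, a protein of endocytic recycling, spanned 915.8 to 1356.3 on cultured CD8+ arrays, against 27.1 to 54.0 on fresh CD8+ arrays, and Ramp3, an accessory protein of other G protein-coupled receptors, spanned 634.8 to 1423.4 against -85.7 to -3.4.

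Most like Xcr1 were Ece1 (r = 0.973), Plin2 (0.957), Plpp1 (0.947), Cd8a (0.942) and Flt1 (0.934). Cd8a is the antigen the cells were sorted by. Plin2, a coat protein of lipid droplets, spanned 317.8 to 410.6 on cultured and 616.2 to 1490.2 on fresh CD8+ arrays, with 26.4 to 141.4 on the other 8. Ece1, an endothelin-converting protease, spanned 731.2 to 857.2 on cultured and 859.9 to 1281.8 on fresh CD8+ arrays, with 243.9 to 365.8 on the other 8. Flt1, a VEGF receptor, was at 48.8 to 59.2 on cultured CD8+ arrays, below the floor, against 184.4 to 234.9 on fresh CD8+ arrays. These correlations describe the same 12 arrays, whose 6 groups set most of their size, and carry no test.

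**Figure D4:**
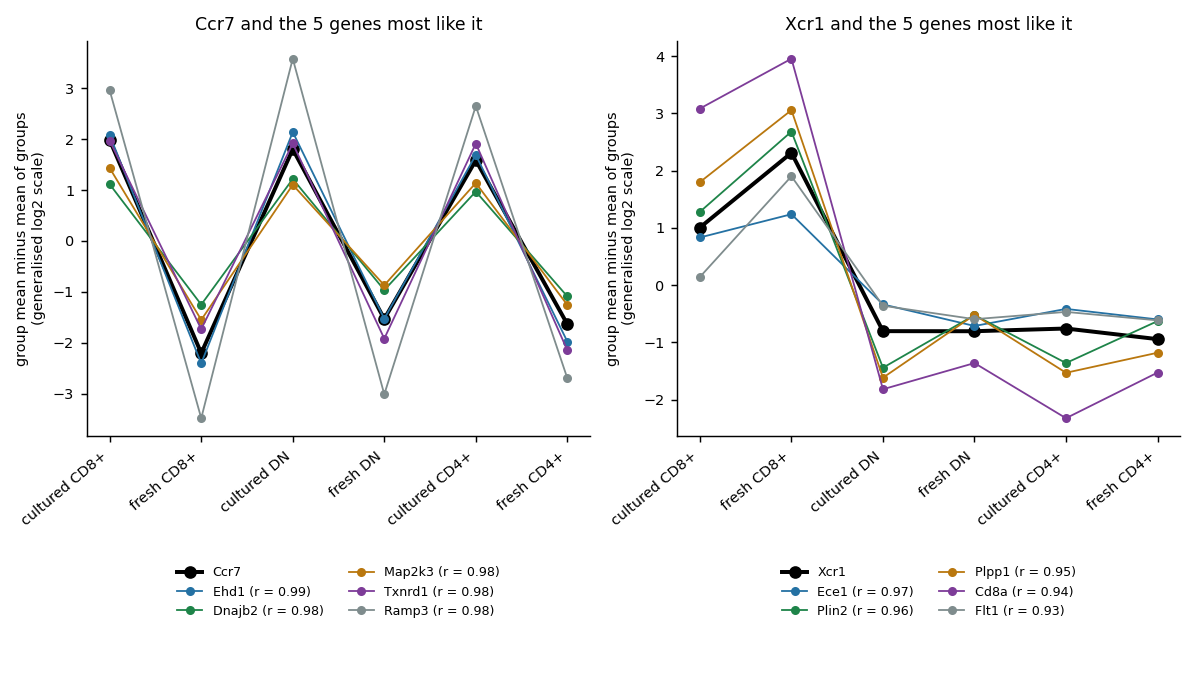
Group means of Ccr7 (left) and Xcr1 (right) with the 5 genes most like each (vertical axis, group mean minus the mean over groups, generalised log2 scale); lines join the groups only to help the eye. The Ccr7 set alternates between high cultured and low fresh groups, and the Xcr1 set is highest in the fresh CD8+ group.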

How the data were processed

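RNA of sorted mouse splenic dendritic cells was measured on 12 arrays, 2 for each of 6 groups, mapped from the sample titles. The deposited intensity values are Average Difference values to which the authors applied global scaling, per the labels; the labels name no software and no genome build. Intensities x were used without further normalization and transformed as a generalised logarithm: log2 of the mean of x and sqrt(x² + c²). The offset c was 45.69, found by taking each array's root mean square of values below 0 and then the median. The detection floor was 2 times c. Probe sets above it on at least 2 arrays were tested: 6159 of 12422, after 66 control probe sets were left out of the 12488. By GEO's platform annotation, 10833 had a single gene symbol, 396 had several (not named) and 1193 had none.

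Group means were fitted to all 12 arrays together with limma 3.58.1 (R 4.3.3), using eBayes with trend and robust estimation (residual df 6, median prior df 5.09), 13 contrasts and Benjamini-Hochberg adjustment over 6159 probe sets. The script was tested on simulated data. Where a group lay under the floor on both arrays, folds are bounds: the bright group's mean log2 intensity against the dim group's, with each dim array taken at the floor or its own value if higher. Precision is limited by 2 arrays a group. A gene with several probe sets was represented by the brightest tested one, except that the search for like patterns took any tested probe set (for Map2k3, not the brightest). Of the genes named with a culture difference or a correlation, Cd83, Cd86, Ptafr, Rgs19 and Map2k3 had another tested probe set, which was called in the same direction in the mean culture effect. Flt3, named only as a marker, had a second, dimmer tested probe set whose group means were higher after culture where those of the first were lower.

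The members and lists were chosen with earlier results of these data known. All 9 receptors are named, with every called gene of the other chemokine receptors, up to 4 genes of lowest adjusted p from each other list, and the 5 genes of highest Pearson correlation with Ccr7 and Xcr1. Alternatives were another offset, a hard floor, other filters, quantile normalization, a replicate block, only the groups compared, no trend, array weights and leaving out each array; one without the 3 arrays of high Gapdh ratio was chosen after seeing the data. Tables and figures used Python 3.11.15, pandas 2.3.3, numpy 2.4.6 and matplotlib 3.10.9.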

Additional observations from a re-analysis of the deposited data

How the results depend on the processing

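Of the 78 receptor differences fitted, 23 were called as reported or under some alternative, and none of these 23 changed direction. Of the 55 never called, 31 changed sign under at least 1 alternative, and these were at most 0.56 in size as reported. Over the alternatives of the 23, 450 values kept their side of the threshold, 32 newly passed it and 31 no longer did; Ccr7's culture calls were kept in all. Receptors called between fresh CD8+ and CD4+ cells numbered 1 with the filter of 6 arrays, 3 with quantile normalization (Ccr2 added) and 1 to 3 with single arrays left out, and between fresh CD8+ and DN cells 1 and 0 to 2. For fresh DN against CD4+ cells, the fit of only the groups compared called 1. For cultured CD8+ against CD4+ cells, the doubled offset, the hard floor and the 6-array filter each called 1, omission of the 3 arrays of high Gapdh ratio 2, and single arrays 0 to 2. For cultured CD8+ against DN cells, no filter, only the groups compared and no trend each called 0, quantile normalization, array weights and omission of the 3 arrays each 2, and single arrays 0 to 2. For culture, omission of the 3 arrays called 2 in CD4+, 4 in CD8+ cells and 5 in the mean; the 6-array filter called 1 in CD8+ and 1 in DN cells, the hard floor 1 in DN cells, and single arrays 1 to 2 in each subset. The 6-array filter leaves Ccr2 and Xcr1 untested. Calls over all probe sets ranged from 26 to 206 (122 as reported) for fresh CD8+ against CD4+ cells, 8 to 155 (88) for fresh CD8+ against DN cells, 0 to 15 (0) for fresh DN against CD4+ cells, 20 to 551 (141) for cultured CD8+ against CD4+ cells, 5 to 210 (80) for cultured CD8+ against DN cells and 0 to 199 (0) for cultured DN against CD4+ cells. For culture they ranged from 130 to 991 (501) in CD8+, 90 to 1178 (610) in DN and 254 to 2115 (1133) in CD4+ cells, and 1699 to 3131 (2420) in the mean. The Gapdh setting was chosen after seeing the data. Deviations of same-numbered arrays correlated above 0.1 in 15 of 15 pairs of groups (0.106 to 0.444), but each comparison holds only 2 pairs, so the pairing is not settled; with the replicate block, fresh CD8+ against CD4+ cells called 3 (Ccr2 added) and cultured CD8+ against CD4+ cells 2 (Ccr6 and Xcr1, adjusted p = 0.0451 each). The mean culture effect has no fit of only the groups compared. Signal over background limits Ccr2, Xcr1 outside CD8+ cells, Ccr1, Ccr9 and Cxcr5. The causes of these changes were not tested.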
